A study of Drosophila melanogaster with 10 samples.

Results

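Mitochondrial ribosomal protein genes are the nuclear genes whose symbols start with mRpL (large subunit) or mRpS (small subunit), and 71 of the 17559 genes in the count table carry such a symbol: 47 named for the large and 24 for the small subunit. They were examined in whole adult male Drosophila melanogaster, 5 to 10 days after eclosion, with 5 flies pooled per sample. The 5 control samples had the genotype w[1118] / Y ; c564 / +, which carries the c564 driver and no hairpin transgene. The 5 knockdown samples had that same background and driver together with 1 copy of UAS-Mef2-IR[GD15549], an RNA interference hairpin against Mef2 that the driver switches on. All flies shared the white mutation and the driver, so carrying a hairpin insertion cannot be told apart from the loss of Mef2, and the series' design text and the sample labels place that insertion on different chromosomes. The driver c564 is known for GAL4 activity in fat body, but also elsewhere in the fly, while RNA was taken from the whole fly, so that fewer cells of a type and less RNA per cell cannot be told apart. The question set by the study is what changes when Mef2, a MADS-box transcription factor, is reduced in the fat body.

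Mitochondrial ribosomes translate the few messenger RNAs made from mitochondrial DNA, all of which encode subunits of the respiratory chain and the ATP synthase. Their ribosomal RNAs come from mitochondrial DNA, but every ribosomal protein is encoded in the nucleus, made in the cytosol and imported. Many of these proteins descend from bacterial ribosomal proteins, and others are found in mitochondria alone. In flies, tissues with dense mitochondria such as flight muscle depend on this system, and mutations in tko, the gene for small subunit protein S12, cause seizures after mechanical shock.

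Total counts were 43823883 to 102851945 per library, and each tested member had 172 to 7023 counts in a library. The targeted gene Mef2 held 95.1, 92.6, 100.7, 90.7 and 88.8 CPM (counts divided by the TMM-scaled library total and multiplied by 1000000) in control replicates 1 to 5 and 75.9, 78.7, 73.6, 81.6 and 86.6 CPM in knockdown replicates 1 to 5, and was called lower (log2 -0.24, SE 0.06, adjusted p = 0.0149). In replicates 1 to 3 alone Mef2 was lower by a log2 of -0.34 (adjusted p = 0.000485), while in replicates 4 and 5 alone it was at -0.12 and not called (adjusted p = 0.28), and the difference between these sets was called (log2 0.24, adjusted p = 0.0425). All libraries were scaled by edgeR's TMM factors, a difference is called at an adjusted p under 0.05 in edgeR's quasi-likelihood test over all genes, and values after ± are SDs over 5 libraries. Knockdown replicate 5 stood apart by transcript length. In it, other protein-coding genes of up to 600 exon bases lay at a median log2 of -0.50 from the control mean, against -0.09 to -0.04 in the other 4 knockdown libraries. These medians cover genes with a control mean of at least 4 CPM. Replicates 1 to 3 and replicates 4 and 5 also form sets in both groups by their counts. The sample labels name no such sets, and the split was taken from an earlier account of these data. Tests that use the sets therefore rest on a split that the labels do not give. Effects within each set are given for the members called in the main test and for mRpS33 and mRpL55. Markers of muscle, testis, accessory gland, photoreceptor and gut were all detected, and of the female yolk protein genes Yp1 and Yp2 were near 0, at means of 0.36 and 0.67 CPM in control, with Yp3 at 10.2 CPM.

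In control flies the members were moderately expressed and close to each other in level. Per kilobase of merged exon they ranged from 7.52 to 51.5 CPM per kb, a 6.84-fold range, and 61 of 70 lay between 10 and 26 CPM per kb. The median level was 16.8 CPM per kb over 46 members of the large subunit and 18.3 over 24 of the small subunit. By the same measure the median was 619 for 77 cytosolic ribosomal protein genes, 175 for 83 nuclear genes of the respiratory chain and 5.06 for 14 mitochondrial aminoacyl-tRNA synthetases, the enzymes that charge mitochondrial transfer RNAs. The components of the mitochondrial ribosome were thus well below those of the cytosolic ribosome and of the respiratory complexes in messenger RNA level.

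**Figure D1:**
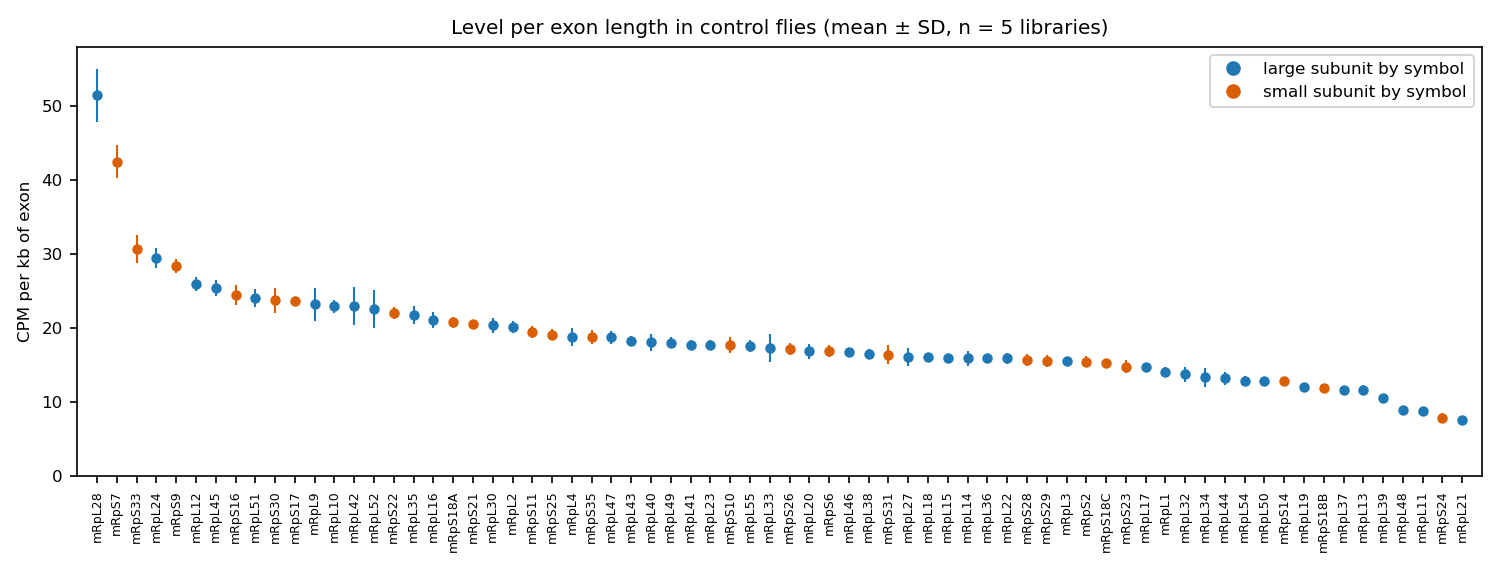
Level of each of the 70 tested members in control flies, in CPM per kilobase of merged exon (points are means and bars SDs over 5 libraries, colour gives the subunit named in the symbol). mRpL28 at 51.5 and mRpS7 at 42.5 stand above the rest, and mRpL21 at 7.52 is lowest.

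The member with the highest level was mRpL28, the counterpart of bacterial large subunit protein L28, at 51.5 ± 3.5 CPM per kb. It was followed by mRpS7, which binds the ribosomal RNA of the small subunit head in bacteria, at 42.5 ± 2.3 CPM per kb. These levels did not overlap within their SDs, and the next were lower again, with mRpS33 at 30.7 ± 1.9 and mRpL24 at 29.5 ± 1.3 CPM per kb, which did overlap. The lowest tested members were mRpL21 at 7.52 ± 0.45, mRpS24 at 7.83 ± 0.69, mRpL11 at 8.87 ± 0.50 and mRpL48 at 8.98 ± 0.40 CPM per kb. Neighbours in this group differed by less than their SDs, apart from mRpS24 and mRpL11. mRpS24 is overlapped on the opposite strand by exons of TBC1d7, and 55.3% of its exon bases are shared, so its level is uncertain.

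The remaining member, mRpL53 (chromosome 2R, 13954195 to 13955664, BDGP6, forward strand), had a count of 0 in all 10 libraries. A count of 0 allows up to 0.0294 to 0.067 CPM, depending on the library. All 829 of its annotated exon bases are shared with exons of CG33155 on the same strand and of AGO1 on the opposite strand, so the 0 is no measure of its expression. Among the members 42 share some exon sequence with another gene, 41 of them with a gene on the opposite strand, but only 6 share over 25% of it.

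Between replicates the members were steady. The SD over the 5 control libraries was 4.65% of the mean in the median member, from 1.61% in mRpL19 to 11.3% in mRpL42, a protein known from the large subunit of mitochondria alone. In knockdown it was 6.48% in the median member and reached 17.2% in mRpL34, which has the shortest transcript (327 bases) of those tested. The SE of the log2 fold change had a median of 0.062 over the members against 0.090 over all 13928 tested genes, so small changes could be resolved better here than in most genes.

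Mef2 knockdown was accompanied by small rises of a few large subunit genes and by no called fall. Of 70 tested members 6 were called higher, namely mRpL30, mRpL39, mRpL28, mRpL3, mRpL45 and mRpL10, and 0 lower. That is 8.57% higher, below the 11.1% of all tested genes that were higher, while 5.51% of all genes were lower and 16.6% were called in either direction. At an unadjusted p under 0.05 the counts were 12 of 70 higher and 2 lower, where 19.8% of all genes were higher and 15.8% lower. DESeq2 called 10 members higher and 0 lower, where it called 23.1% of all genes, 13.7% higher and 9.42% lower, and limma voom called 7 higher and 0 lower, where it called 16.5% of all genes, 10.7% higher and 5.89% lower. With upper-quartile scaling 4 members were higher and 1, mRpL55, was lower, where 17.6% of all genes were called, 9.34% higher and 8.22% lower. With the set of replicates as a covariate 12 were higher and 1, again mRpL55, lower, where 34.3% of all genes were called, 19.3% higher and 15% lower. With voom quality weights 13 were higher and 1, also mRpL55, lower, where 26.6% of all genes were called, 15.5% higher and 11.1% lower. The median log2 change over the members was 0.035, against -0.0039 over all tested genes. Upper-quartile scaling turned the members' median to -0.0061 and that of all tested genes to -0.0441, so both moved down. Changes were small, with 65 of 70 members within 0.2 of 0 on the log2 scale.

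**Figure D2:**
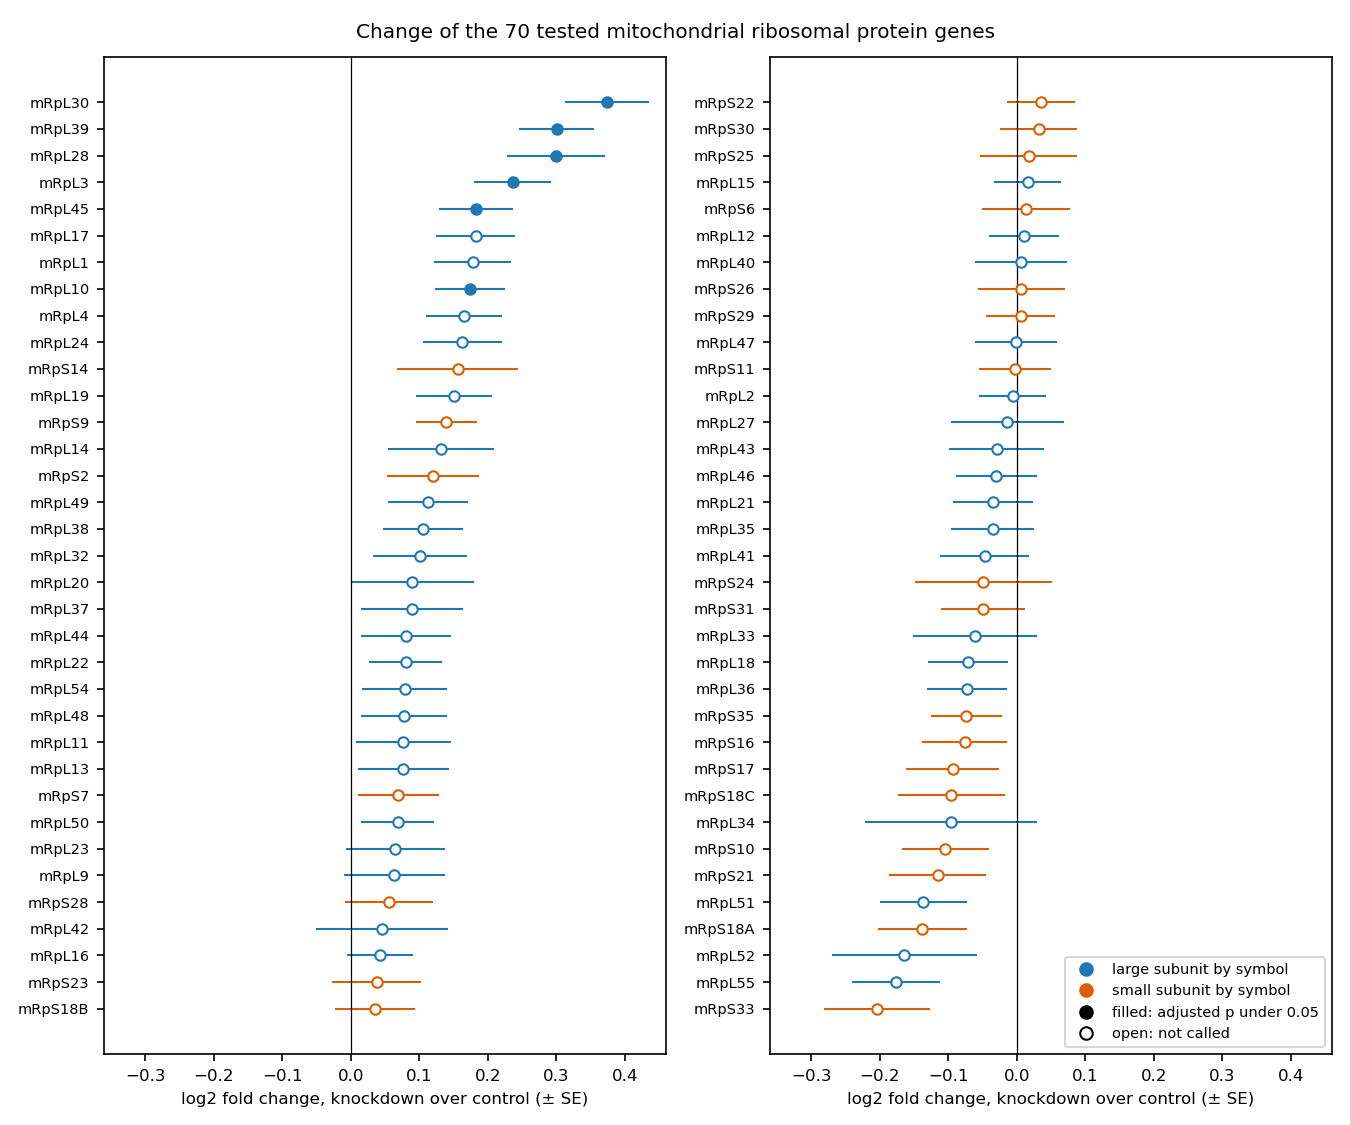
Log2 fold change, knockdown over control, of the 70 tested members (points are edgeR estimates, bars are ± 1 SE, colour gives the subunit named in the symbol, filled points are called at an adjusted p under 0.05). The 6 filled points, all of the large subunit, run from mRpL10 at 0.17 to mRpL30 at 0.37, and mRpS33 at -0.20 is lowest.

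The largest rise was that of mRpL30, the counterpart of bacterial large subunit protein L30 (chromosome X, 4647871 to 4648646, forward strand, protein-coding with 696 exon bases). Its level was 14.3, 15.1, 13.2, 13.8 and 14.6 CPM in control replicates 1 to 5 and 18.5, 18.6, 18.04, 20.1 and 16.7 CPM in knockdown replicates 1 to 5. Every knockdown library was above every control library, and knockdown replicate 4 was highest. The change was 29.6% (log2 0.37, SE 0.06, adjusted p = 0.00206), and it stayed called without any 1 library (adjusted p 0.00164 to 0.012) and with the replicate number as a block (adjusted p = 0.0062). The sets gave 0.37 (replicates 1 to 3) and 0.35 (replicates 4 and 5), and in the latter alone it was not called (adjusted p = 0.0633). In all, 7.9% of its exon sequence is shared with Torsin on the opposite strand.

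mRpL39 (chromosome 3L, 14997981 to 14999666, reverse strand, 1137 exon bases), a large subunit protein known from mitochondria alone and, in human, related in sequence to threonyl-tRNA synthetase, came next. It held 11.8, 12.1, 12.01, 12.5 and 12.04 CPM in control and 14.5, 14.4, 13.9, 15.9 and 15.7 CPM in knockdown. The groups did not overlap, and the control libraries had an SD of 0.25 CPM. The log2 change was 0.30 (SE 0.05, adjusted p = 0.00398), with 0.25 within replicates 1 to 3 and 0.34 within replicates 4 and 5, and it stayed called without any 1 library (adjusted p 0.00449 to 0.0199).

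mRpL28 (chromosome 2L, 4973976 to 4975316, forward strand, 1170 exon bases) also rose. Control replicates 1 to 5 held 64.8, 64.1, 59.4, 55.1 and 57.8 CPM and knockdown replicates 72.7, 68.8, 67.7, 85.5 and 75.9 CPM. The groups did not overlap, and replicates 4 and 5 were the lowest of control and the highest of knockdown. The log2 change was 0.30 (SE 0.07, adjusted p = 0.0168), lost without control replicate 3 (adjusted p = 0.0576). In replicates 1 to 3 alone it was 0.15 and in replicates 4 and 5 alone 0.49, and the difference between the sets was called (log2 0.36, adjusted p = 0.0214). It was the 1 member of 70 with a called difference between the sets, where 18.8% of all tested genes had one.

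mRpL3 (chromosome X, 15761248 to 15762663, forward strand, 1243 exon bases) is the counterpart of bacterial L3, which reaches towards the site of peptide bond formation. It held 19.0, 18.9, 19.9, 20.1 and 18.8 CPM in control and 22.2, 22.0, 21.0, 24.9 and 23.7 CPM in knockdown. The groups did not overlap, with knockdown replicate 3 the nearest to control. The log2 change was 0.24 (SE 0.06, adjusted p = 0.0162), lost without control replicate 1 (adjusted p = 0.0519). It was 0.18 in replicates 1 to 3 alone and 0.30 in replicates 4 and 5 alone.

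The remaining called members had the least margin. mRpL10 (chromosome 2L, 203779 to 204782, forward strand), whose bacterial counterpart anchors the L12 stalk that binds translation factors, went from 20.8 ± 0.8 to 23.4 ± 1.1 CPM (log2 0.17, SE 0.05, adjusted p = 0.0386). Control replicates 1 to 5 held 21.2, 21.4, 19.5, 21.2 and 20.5 CPM and knockdown replicates 23.5, 22.2, 22.4, 24.4 and 24.5 CPM. mRpL45 (chromosome 3R, 22618492 to 22619826, forward strand), known in human mitochondria to hold the ribosome at the inner membrane, went from 32.3 ± 1.3 to 36.6 ± 2.1 CPM (log2 0.18, SE 0.05, adjusted p = 0.0406). Its control libraries held 33.5, 33.7, 31.9, 30.5 and 31.7 CPM and its knockdown libraries 35.9, 35.7, 34.2, 39.7 and 37.6 CPM. In both genes all knockdown libraries were above all control libraries. The log2 change of mRpL45 was 0.10 in replicates 1 to 3 alone (adjusted p = 0.117) and 0.29 in replicates 4 and 5 alone (adjusted p = 0.0413), a difference that was not called (adjusted p = 0.0591). That of mRpL10 was 0.14 and 0.20, called in neither set alone (adjusted p = 0.0663 and 0.114). The main calls of both genes were lost with the replicate number as a block (adjusted p = 0.0591 for mRpL10 and 0.0731 for mRpL45) and with upper-quartile scaling (0.0712 and 0.0791). They were also lost without most single libraries, 8 of 10 for mRpL10 and 9 of 10 for mRpL45 (adjusted p up to 0.137 and 0.121). With the block 4 members were higher and 0 lower, where 20.4% of all genes were called, 13.1% higher and 7.32% lower. In replicates 1 to 3 alone 9 members were higher and 0 lower, where 25.3% of all genes were called, 15.4% higher and 9.92% lower. In replicates 4 and 5 alone 4 were higher and 1, mRpS33, lower, where 27.6% of all genes were called, 13.2% higher and 14.4% lower.

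**Figure D3:**
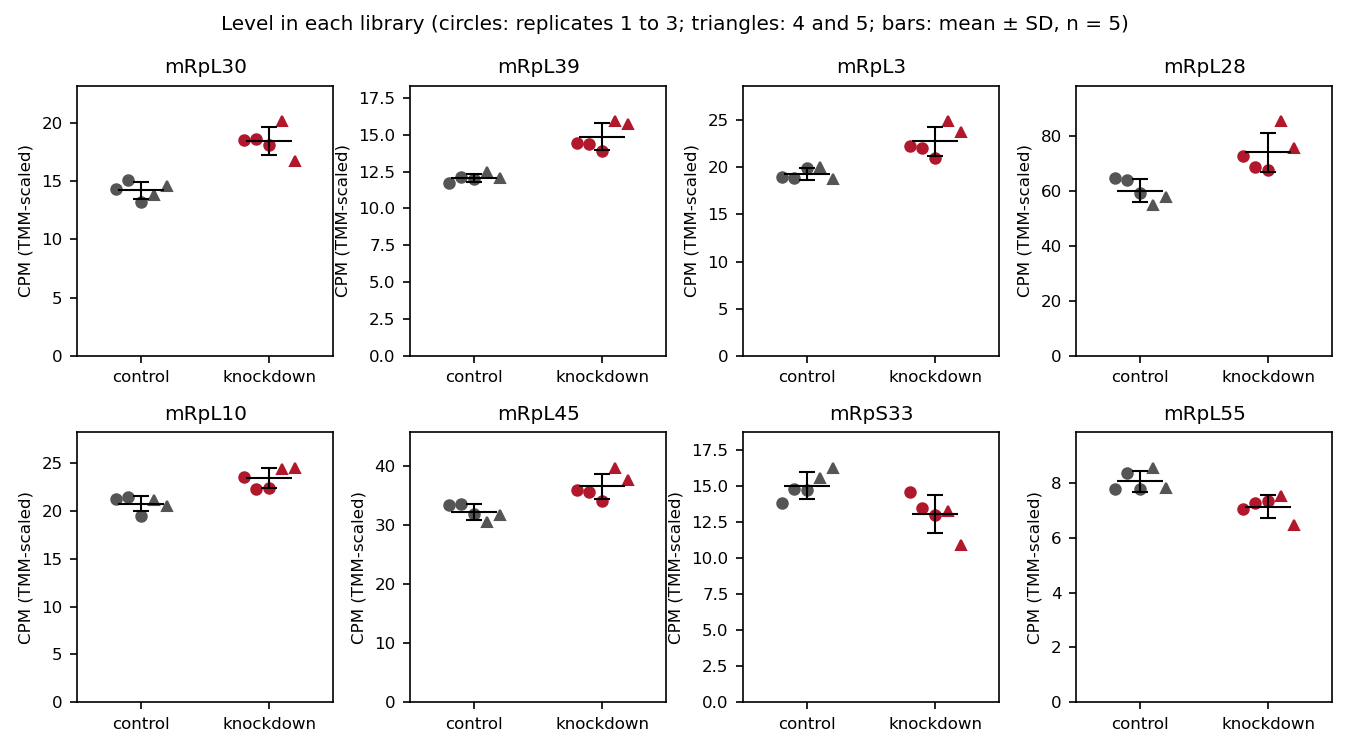
CPM in each library of the 6 members called higher and of the 2 members with the largest negative values, mRpS33 and mRpL55 (circles are replicates 1 to 3, triangles replicates 4 and 5, horizontal marks and bars are means and SDs over 5 libraries, and every axis starts at 0). In the 6 called members the groups do not overlap; mRpS33 overlaps, and its lowest point is knockdown replicate 5 at 10.9 CPM.

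Below the threshold lay 8 members with an adjusted p between 0.05 and 0.1, and 6 of them had positive values. These were mRpL17 (log2 0.18, adjusted p = 0.0503), mRpL1 (0.18, 0.0509), mRpS9 (0.14, 0.0515), mRpL4 (0.17, 0.0605), mRpL24 (0.16, 0.0724) and mRpL19 (0.15, 0.0812), named after their values were seen. In 10 members, or 14.3%, every knockdown library was above every control library (11.8% of all tested genes), comprising the 6 called members with mRpL17, mRpL1, mRpL19 and mRpS9. The reverse held for 1 member, mRpL55, or 1.43% (6.86% of all genes).

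The largest negative values were those of mRpS33, a mitochondria-specific protein of the small subunit, and mRpL55, a large subunit protein that flies need for development. mRpS33 (chromosome 3R, 16436045 to 16436597, reverse strand, 491 exon bases) held 13.8, 14.8, 14.7, 15.6 and 16.3 CPM in control and 14.6, 13.5, 13.04, 13.3 and 10.9 CPM in knockdown, and the groups overlapped (log2 -0.20, SE 0.08, adjusted p = 0.0879). The value was -0.08 in replicates 1 to 3 and -0.43 in replicates 4 and 5, where it was called, and it was also called without knockdown replicate 1 (adjusted p = 0.0478). mRpL55 (chromosome 3R, 19094394 to 19094905, reverse strand, 456 exon bases) held 7.76, 8.35, 7.78, 8.54 and 7.79 CPM in control and 7.05, 7.27, 7.32, 7.52 and 6.45 CPM in knockdown (log2 -0.18, SE 0.06, adjusted p = 0.0784). Every knockdown library was below every control library, with knockdown replicate 5 the lowest. mRpL55 was called lower with upper-quartile scaling (adjusted p = 0.045), with the set as a covariate (0.0472) and with voom quality weights (0.027). Its value was -0.14 in replicates 1 to 3 alone and -0.26 in replicates 4 and 5 alone, called in neither (adjusted p = 0.115 and 0.175).

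By subunit, all 6 called members were named for the large subunit, 6 of 46 tested (13.04%), and 0 of 24 for the small subunit. Of all tested genes 11.1% were higher in the same test, near the share of the large subunit. At an unadjusted p under 0.05, 19.8% of all genes were higher and 15.8% lower. Among the small subunit members 1 was higher and 1 lower at that threshold. DESeq2 and limma voom each called 1 of them, mRpS9, higher, as did the fit with the set as a covariate. Replicates 1 to 3 alone, voom quality weights and the length correction described below each called mRpS9 and mRpS14 higher. Both levels are uncertain, as other genes share 25.1% of the exon bases of mRpS9 and 35.8% of those of mRpS14. These genes are ArgRS-m on the opposite strand of mRpS9, and CG32533 (same strand) and Naa15-16 (opposite strand) at mRpS14. The summed level of the large subunit genes was 706 ± 15 CPM in control (689 to 722) and 755 ± 25 CPM in knockdown (732 to 795), so the groups did not overlap. With upper-quartile scaling these ranges met, at 697 to 739 and 712 to 770 CPM. The large subunit sum includes the 6 called members, so its rise is not separate from theirs. With TMM, mRpL28 alone went from a mean of 60.2 to 74.1 CPM. For the small subunit the sums were 421 ± 7 and 423 ± 12 CPM with TMM and overlapped. The median log2 change was 0.073 for the large and 0.0061 for the small subunit, and the difference between the subunits was not tested. In the human mitochondrial ribosome the counterparts of mRpS30 and mRpS18A sit in the large subunit despite their names, and neither gene was called here (log2 0.03 and -0.14).

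The members were also grouped by where their bacterial or human counterparts sit, in groups drawn up after the values were seen, so that their counts are a description only. Over all tested genes 11.1% were higher and 5.51% lower, and 19.8% and 15.8% at an unadjusted p under 0.05. Of 4 stalk proteins (mRpL1, mRpL10, mRpL11, mRpL12) 1 was higher, and all 4 had positive values, with a median of 0.13. mRpL12, whose human counterpart also binds the mitochondrial RNA polymerase, was at 19.2 ± 0.7 CPM in control and 19.3 ± 0.9 CPM in knockdown (log2 0.01, SE 0.05, adjusted p = 0.895). Of 7 proteins lining the exit tunnel or its opening 1 was higher, mRpL45, and 6 had positive values, with a median of 0.16. Of 8 proteins of the central protuberance 0 were called in edgeR's test, 3 had positive values and the median was -0.02, with 1 lower at an unadjusted p under 0.05. Of 9 proteins of the small subunit head, among them the GTP-binding protein mRpS29 (log2 0.01, SE 0.05), 0 were called, with 1 higher and 1 lower at an unadjusted p under 0.05 and a median of -0.05. With the length correction, under which 12.4% of all genes were higher, 4 of the 7 tunnel proteins, 2 of the 4 stalk proteins, 0 of the 8 central protuberance proteins and 2 of the 9 head proteins were higher.

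Members numbered after bacterial proteins (1 to 36 and 47 in the large subunit, 1 to 21 and 24 in the small) were set beside the rest, with no test of the difference. Of 43 of them 4 were higher, with a median log2 change of 0.04. Of 27 tested others 2 were higher, with a median of 0.03. The share over all tested genes was 11.1% higher. At an unadjusted p under 0.05, 10 of the 43 were higher and 0 lower, and 2 of the 27 higher and 2 lower. At that threshold 19.8% of all genes were higher and 15.8% lower. With the length correction 11 of the 43 and 3 of the 27 were higher, where 12.4% of all genes were higher. mRpL55 was counted with the others by its number, although its human counterpart has been assigned to the bacterial L31 family. By chromosome, the median log2 change of the members ran from -0.05 for 11 on 2R to 0.11 for 11 on X, where the medians of all tested genes were 0.0050 and 0.02.

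The direction of the members varied with the length of their transcripts. The tested members have 327 to 2078 exon bases, with a median of 783, and are short beside the median of 1836 bases over tested protein-coding genes. Of the 13 members of up to 600 bases, 12 had negative values (median -0.10) and 0 were called, with 2 lower at an unadjusted p under 0.05, mRpS33 and mRpL55. Of the 19 members over 1000 and up to 1500 bases, 16 had positive values (median 0.11) and 4 were called higher. Other protein-coding genes of the same lengths went the same way, with medians of -0.14 for 746 genes of up to 600 bases and 0.01 for 2180 genes over 1000 and up to 1500 bases. In every bin up to 1500 bases the members' median was above that of other genes. Across the 70 members the Spearman correlation of log2 change and length was 0.49, and across 12077 other protein-coding genes it was 0.11. The points share the same 10 libraries, so these are descriptions.

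**Figure D4:**
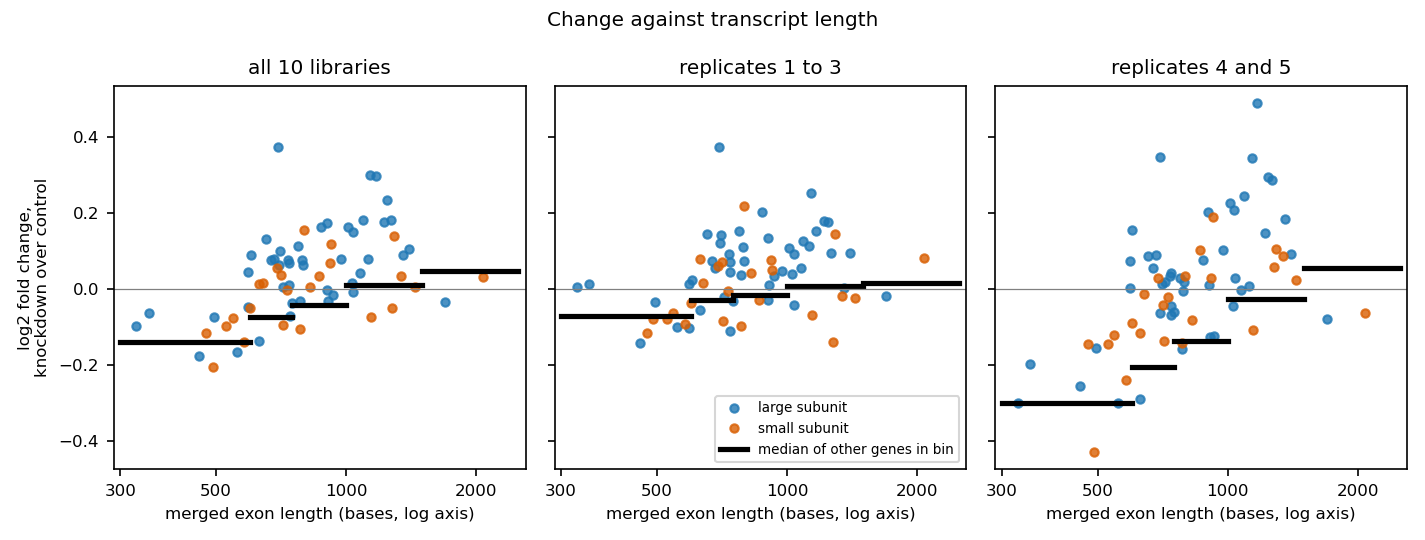
Log2 fold change of each tested member against merged exon length (log axis), in all 10 libraries, in replicates 1 to 3 and in replicates 4 and 5 (points are members, coloured by subunit, and black bars are medians of other protein-coding genes in each length bin). Short members lie below 0 in most cases, and the bars at up to 600 bases stand at -0.14, -0.07 and -0.30 in the 3 panels.

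By library the pattern was strongest in knockdown replicate 5. The 13 members of up to 600 bases lay at a median log2 of -0.31 from the control mean in that library, and at -0.03, -0.02, -0.12 and 0.02 in knockdown replicates 1 to 4. The 21 members over 1000 bases lay at 0.09, 0.10, 0.04, 0.09 and 0.10 in knockdown replicates 1 to 5. Long members were thus above the control mean in every knockdown library, while the short members were below it in 4 of 5, most in replicate 5 and next in replicate 3. In control libraries the short members lay between -0.03 and 0.02. Without knockdown replicate 5 the correlation over members was 0.33 and over other genes 0.01, and 12 of 13 short members still had negative values (median -0.06). Without it 7 members were higher and 0 lower (all genes 13.3% called, 7.84% higher and 5.45% lower), 4 of which were among the 6 called before, namely mRpL30, mRpL39, mRpL28 and mRpL3. mRpL17, mRpL24 and mRpS14 were added (adjusted p = 0.0484, 0.0348 and 0.0251).

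**Figure D5:**
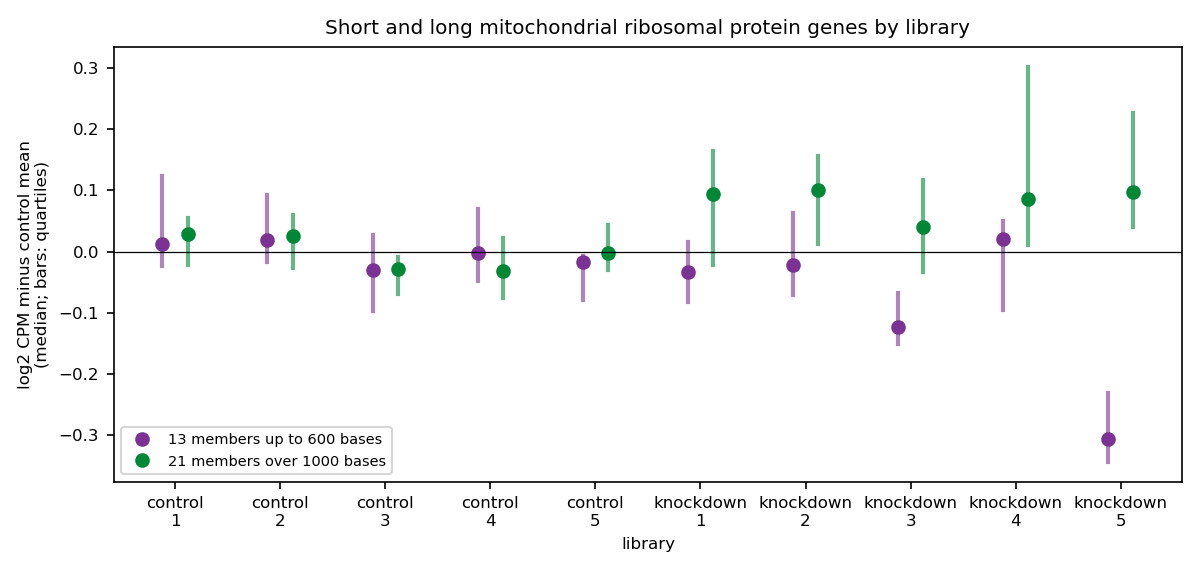
Median deviation from the control mean (log2 CPM) of the 13 tested members of up to 600 exon bases and of the 21 over 1000 bases in each library (points are medians over members, bars their quartiles). Short members drop to -0.31 in knockdown replicate 5, and long members lie at 0.04 to 0.10 in all 5 knockdown libraries.

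When each library's trend with length was fitted over the better expressed tested genes and taken out, an alternative chosen after seeing the data, 14 members were higher and 0 lower. That is 20.0%, where 20.5% of all tested genes were called, 12.4% higher and 8.02% lower. All 6 members called before were among them, with log2 changes of 0.46 for mRpL30, 0.31 for mRpL39, 0.31 for mRpL28, 0.24 for mRpL3, 0.22 for mRpL10 and 0.18 for mRpL45. The 8 added were mRpL1, mRpL4, mRpL14, mRpL17, mRpL24, mRpL49, mRpS9 and mRpS14. The members' median became 0.094, and the values of mRpS33 and mRpL55 shrank to -0.07 and -0.02. With the length correction and the replicate block together, 13 members were higher and 0 lower (all genes 23.9% called, 14.7% higher and 9.17% lower), without mRpL45 and mRpS9 and with mRpL32.

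Small subunit proteins S12 and S15 are encoded by genes with other names, tko and bonsai. tko held 12.1, 12.8, 12.04, 11.98 and 12.7 CPM in control and 13.8, 13.8, 13.1, 15.7 and 13.2 CPM in knockdown, without overlap, and was not called (log2 0.17, SE 0.06, adjusted p = 0.0691). bonsai was at 23.0 ± 0.4 and 24.3 ± 1.3 CPM (log2 0.08, SE 0.05, adjusted p = 0.286). The ribosomal RNAs mt:lrRNA and mt:srRNA were not called either, but with the replicate block mt:srRNA was called higher (log2 0.53, adjusted p = 0.0114; without the block 0.48, adjusted p = 0.169). mt:lrRNA was at 52816 ± 9132 and 54300 ± 8879 CPM and mt:srRNA at 209 ± 76 and 291 ± 64 CPM, and as the libraries were made from polyadenylated RNA these levels do not measure ribosome number.

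Other genes of mitochondrial gene expression gave a mixed picture, with counts to be read against the same 11.1% higher and 5.51% lower. Of 14 mitochondrial aminoacyl-tRNA synthetases 5 were higher and 0 lower, with a median log2 change of 0.17. They were led by SerRS-m, at 10.2 ± 0.4 CPM in control and 13.4 ± 1.4 CPM in knockdown (log2 0.40, SE 0.07, adjusted p = 0.00458). One of them, ArgRS-m (0.29, adjusted p = 0.0441), shares 325 exon bases with mRpS9 on the opposite strand. Of 8 translation factors 0 were called, with 1 higher at an unadjusted p under 0.05, the elongation factor mEFTu1 (log2 0.12, SE 0.05, adjusted p = 0.122). Of 9 tested genes of mitochondrial transcription and replication 0 were called, although 5 were higher at an unadjusted p under 0.05 and the median was 0.16. The smallest adjusted p there was that of the termination factor family gene mTerf5 (log2 0.14, adjusted p = 0.0813).

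Among the products and partners of this system, 1 of 13 mitochondrially encoded messenger RNAs was higher, mt:ND2, at 90.8 ± 28.9 CPM in control and 183 ± 48 CPM in knockdown (log2 1.01, SE 0.22, adjusted p = 0.0119). Of 83 nuclear respiratory chain genes 0 were higher and 2 lower, COX6CL (log2 -0.29, adjusted p = 0.0336) and UQCR-14L (-0.32, 0.0379), with 58 negative values. At an unadjusted p under 0.05, 1 of the 83 was higher and 13 were lower, where 19.8% of all genes were higher and 15.8% lower. The median over the 83 genes was -0.05, and it became -0.0013 with the length correction. It was 0.0024 in replicates 1 to 3 alone and -0.22 in replicates 4 and 5 alone. Of 12 import genes 0 were called, with 1 higher and 5 lower at an unadjusted p under 0.05, Tim17b2 having the smallest adjusted p (log2 -0.24, adjusted p = 0.074). Of 8 mitochondrial chaperones and proteases 2 were higher, Hsp60A (log2 0.71, adjusted p = 0.00188) and Hsc70-5 (0.39, adjusted p = 0.0136). Of 77 cytosolic ribosomal protein genes 12 were higher and 2 lower, with a median of 0.12, and the 5S RNA binding protein RpL5 had the smallest adjusted p (log2 0.28, SE 0.05, adjusted p = 0.00435). With the replicate block, under which 13.1% of all genes were higher and 7.32% lower, 2 mitochondrially encoded messenger RNAs were higher, with mt:ND4L added (adjusted p = 0.049). The block gave 3 respiratory chain genes lower, 1 import gene lower (Tim17b1, adjusted p = 0.0253), and 14 cytosolic ribosomal protein genes higher and 5 lower. The differences between these lists and the members were not tested.

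Some cell type markers moved alongside the members, and their part in the members' changes was not tested. In these lists no marker with a row was at 0 in all libraries, including those under the filter. Summed levels of the 8 testis markers were 1929 to 2034 CPM in control and 1519 to 1886 CPM in knockdown, with 0 called in edgeR's test and 2 lower at an unadjusted p under 0.05. Those of the 6 accessory gland markers were 2638 to 2909 and 2065 to 2689 CPM (1 lower), and those of the 5 hemocyte markers 181 to 215 and 224 to 281 CPM (3 higher). The oenocyte marker Cyp4g1 fell from 30242 ± 4312 to 18933 ± 1785 CPM, the Malpighian tubule gene Uro rose from 78.2 ± 14.4 to 127 ± 26 CPM while the other 2 tubule markers, Irk2 and CapaR, were not called (log2 0.07 and -0.06), and the fat droplet gene Lsd-1 was the 1 of 4 tested fat body markers that was lower. The 4 tested fat body markers had a median log2 change of 0.02, with 0.12 in replicates 1 to 3 alone and -0.74 in replicates 4 and 5 alone. The yolk protein gene Yp3 was the 1 of 4 tested female markers that was lower. In edgeR's test 0 of 8 muscle, 0 of 6 midgut and 0 of 5 neuron markers were called, with 1, 4 and 0 of them at an unadjusted p under 0.05. With the replicate block 5 of 5 hemocyte markers were higher, and 3 accessory gland, 2 female and 1 midgut markers were lower. Among photoreceptor markers 1 of 6 was lower, and sums overlapped between the groups for accessory gland, photoreceptor, midgut, neuron, fat body and muscle markers, where muscle, the tissue densest in mitochondria, held 5214 to 7820 CPM in control and 4759 to 8336 CPM in knockdown.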

How the data were processed

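The authors deposited raw counts per gene for each of 10 libraries of polyadenylated RNA. The submitters' processing notes name STAR 2.4.0j, bcl2fastq, limma and featureCounts, and genome BDGP6. For strand, multi-mapping reads and annotation release, settings were not given in the sources used here, so counts of overlapping genes are uncertain. Symbols and coordinates came from Ensembl release 115 of BDGP6 (17253 of 17559 identifiers matched). Of 73 annotated mRpL and mRpS genes, mRpS34 and mRpS5 had no row under their current identifiers and were not analysed here.

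Counts were tested with edgeR 4.0.16 in R 4.3.3 (TMM, filterByExpr at a minimum count of 10, quasi-likelihood fit on group, Benjamini-Hochberg adjustment over 13928 genes), with DESeq2 1.42.0 and limma 3.58.1 as alternatives, and the steps were tested on simulated data. SE is the size of the log2 change over the square root of F. Exon length is the union of annotated exons. The length correction used a loess trend per library, with span 0.5, as offsets, and left out genes with no length. The trend was fitted on the better expressed tested genes and applied to all tested genes with a length. Floors (3 counts) cover counting error only.

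The series' design text describes 5 biological replicates in each group. Same-numbered samples deviated together from their group means (correlation 0.16 to 0.28 in the 5 pairs), above a bound of 0.1, so the number served as a block in an alternative. This rests on the data, and other samples of the same set correlated at 0.09 to 0.34 and those of different sets at -0.31 to -0.10. No 2 libraries agreed within sampling noise (chi-square per degree of freedom at least 6.86).

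Named members were those called (up to 8 in each direction), the 2 largest rises and falls, the 4 highest and 4 lowest levels per kb and the 3 smallest interaction p, with tko and bonsai, and 1 gene of each other list. The members and lists were chosen with earlier results of these data known.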

Additional observations from a re-analysis of the deposited data

Results flagged for a closer look

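The effect of the knockdown on mRpL28 differed between the sets of replicates by a log2 of 0.36 (adjusted p = 0.0214, edgeR interaction term), being larger in replicates 4 and 5. No library stood far from the others of its group by Dixon's criterion (0.71 for 5 samples) among the 30 groups examined, which were both groups of the 14 named members and of the summed level of all members.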

How the results depend on the processing

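The number of members called higher was 6, and it was 12 with the set as a covariate, 10 with DESeq2, 13 with voom quality weights, 14 with the length correction, 13 with that correction and the replicate block, and 3 to 7 when single libraries were left out. It was 3 without control replicate 1 or control replicate 3. With the replicate block alone it was 4. The number called lower was 0, and it was 1 with upper-quartile scaling, with the set as a covariate, in replicates 4 and 5 alone and with voom quality weights, and 0 to 1 when single libraries were left out (1 without knockdown replicate 1). The median log2 change of 0.035 became -0.0061 with upper-quartile scaling, 0.094 with the length correction and 0.092 with that and the block, and ranged from 0.0045 (without control replicate 3) to 0.045 when single libraries were left out. It was 0.0056 without knockdown replicate 4. The median over all tested genes moved as well, from -0.0039 to -0.0441 with upper-quartile scaling. That median was -0.0214 without control replicate 3 and -0.0208 without knockdown replicate 4. The uncalled value of mRpS24 turned positive with voom quality weights (0.0013), with the length correction (0.057) and with the block added to it (0.054), and that of mRpL48 turned negative in replicates 4 and 5 alone (-0.0034). Over all genes 2317 were called, against 4771 with the set as a covariate, 3536 in replicates 1 to 3, 3843 in replicates 4 and 5, 3711 with voom quality weights, and 1297, 1425 and 1536 without control replicates 3, 1 and 2. The cause of these shifts was not tested. Among the 14 named members' log2 changes under other settings and omissions, no called member changed sign. The effect of depth on the calls was not tested; tested members had 172 to 7023 counts in a library.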
